A study of Homo sapiens with 7 samples.

Results

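The 37 genes of cholesterol and fatty acid synthesis described here were taken by symbol from the 19699 genes of the deposited count table. Of these, 18 encode enzymes of sterol synthesis, 6 regulate that synthesis, 9 make or modify fatty acids, and 4 act in the efflux, uptake or transport of sterols (the efflux group below). RNA was sequenced from HCT116 p53-/- cells, an established human colon carcinoma line in which the p53 gene has been inactivated, a background shared by all 7 libraries. The cells had been infected with wild-type p53, with 1 of the substituted forms p53-M133T and p53-R273H, or with the control that the labels name both vector and vehicle, called vector here. The vector line and both substituted lines were each sequenced untreated and after 24 h with arsenic trioxide (ATO) at 1 µg/ml, an arsenic compound used against acute promyelocytic leukemia, whereas wild-type p53 cells were sequenced untreated. Each of the 7 groups was 1 library, so the 3 lines stood in for replicates in the tests of ATO. Their p-values rest on how far the lines differ and on a spread borrowed from other genes, not on repeated cultures. The promoter that drove the p53 forms, and whether infected cells were cloned, is not given in the sources used here.

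Cells build cholesterol from acetyl-CoA by way of mevalonate, farnesyl diphosphate, squalene and lanosterol, and they build fatty acids from the same precursor. Transcription of these enzymes is driven by the sterol regulatory element-binding proteins (SREBPs), which the escort protein SCAP carries out of the endoplasmic reticulum when sterols are scarce and which the INSIG proteins hold back when sterols are plentiful. When sterols accumulate, the liver X receptors (LXRs) turn on genes of sterol efflux such as ABCA1.

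The libraries held 25062996 (wild-type p53) to 39297534 (p53-M133T) counts. A count of 3, the limit that a count of 0 allows, stood for 0.0763 to 0.12 CPM on these totals before scaling. CPM are counts relative to library size. The other CPM values here are after TMM scaling, which sets the bulk of genes to the same level in each library. Of the 7 markers of colon epithelium 6 reached 1 CPM, and the brush border marker VIL1 stayed below it. EPCAM lay between 240 and 261 CPM and CDX2 between 13 and 15.7 CPM in the 7 libraries, but the other 4 moved. KRT19 stood at 1280 CPM in wild-type p53 cells, 544 to 640 CPM in the untreated lines and 341 to 470 CPM with ATO, and KRT18 at 676, 880 to 1076 and 1410 to 1766 CPM in the same order. CDH1 stood at 182 CPM in wild-type p53 cells, 113 to 123 CPM in the untreated lines and 140 to 156 CPM with ATO, and KRT8 at 1574, 1487 to 1782 and 1811 to 2292 CPM. Of the 7 leukocyte markers, 3 reached 1 CPM, and their summed level was 67.4 CPM in wild-type p53 cells and 4.24 to 8.9 CPM in the other 6 libraries. MPO, CD68 and LYZ made up that sum, and the defining markers PTPRC, CD14 and CD3E stayed at or below 0.294 CPM. Fibroblast markers summed to 17.2 to 24.4 CPM, nearly all of it COL1A1. The library name in the description field of the labels begins with another number for wild-type p53 than for the other 6 libraries, which share theirs, so an effect of genotype and one of batch cannot be told apart there.

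Levels per kilobase of exon spanned a wide range within the set. In vector cells the highest were the stearoyl-CoA desaturase gene SCD at 548 CPM per kb, the fatty acid synthase gene FASN at 303 CPM per kb and the ATP citrate lyase gene ACLY at 105 CPM per kb. The 18 sterol synthesis genes lay between 3.36 CPM per kb for HSD17B7 and 46 CPM per kb for FDPS, with FDFT1 at 45.2 CPM per kb beside it. The lowest were the efflux pump genes ABCG1 at 0.287 CPM per kb and ABCA1 at 0.0249 CPM per kb. ABCA1 had 2 to 10 counts per library, too few for the test of ATO across the lines, so that test covered 36 of the 37 genes. Summed over each group in vector cells, the 9 fatty acid genes took 7146 CPM, the 18 sterol synthesis genes 1421 CPM, the 6 regulators 867 CPM and the 4 efflux genes 89.8 CPM.

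Promoter windows, from 250 bases before to 50 bases after the start in RefSeq on GRCh38.p14, were at hand for 32 of the 37 genes, in 45 windows. Windows for ABCG1, ACAT2, FASN, FDFT1 and SQLE were not used here. Both strands were searched for TCACNCCAC, a form of the sterol regulatory element, for TCACNTGA, an E-box-like form that SREBPs also bind, and for CCAAT, the box bound by NF-Y, a partner of SREBPs. Of the 5 windows below, those of INSIG1, SREBF2 and EBP were the only ones of the 45 with a TCACNCCAC or TCACNTGA match. INSIG1, the highest in wild-type p53 cells by fold, fell with ATO, and so did SREBF2 and EBP, as did many others of the set. MSMO1 was highest in wild-type p53 cells and did not pass the ATO test, and LSS fell the most with ATO. The windows are read 5′ to 3′ on the gene's strand, and capitals mark the motifs, which did not overlap each other.
INSIG1: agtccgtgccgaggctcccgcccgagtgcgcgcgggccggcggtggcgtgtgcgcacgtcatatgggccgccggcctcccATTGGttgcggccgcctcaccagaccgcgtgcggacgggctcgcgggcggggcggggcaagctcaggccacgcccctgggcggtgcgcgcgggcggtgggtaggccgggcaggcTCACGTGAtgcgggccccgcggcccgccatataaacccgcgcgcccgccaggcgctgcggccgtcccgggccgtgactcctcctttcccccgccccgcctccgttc
SREBF2: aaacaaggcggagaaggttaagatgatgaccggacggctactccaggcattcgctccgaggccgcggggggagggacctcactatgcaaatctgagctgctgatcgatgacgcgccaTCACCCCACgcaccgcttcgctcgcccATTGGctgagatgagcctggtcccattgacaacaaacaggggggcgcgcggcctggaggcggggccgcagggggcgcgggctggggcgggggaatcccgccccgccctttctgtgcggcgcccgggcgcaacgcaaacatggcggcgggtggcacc
EBP: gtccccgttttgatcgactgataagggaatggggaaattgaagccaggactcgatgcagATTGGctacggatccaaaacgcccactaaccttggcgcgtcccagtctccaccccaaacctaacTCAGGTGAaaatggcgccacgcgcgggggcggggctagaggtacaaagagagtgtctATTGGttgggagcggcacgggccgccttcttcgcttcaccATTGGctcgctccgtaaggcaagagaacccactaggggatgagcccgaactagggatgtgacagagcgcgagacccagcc
MSMO1: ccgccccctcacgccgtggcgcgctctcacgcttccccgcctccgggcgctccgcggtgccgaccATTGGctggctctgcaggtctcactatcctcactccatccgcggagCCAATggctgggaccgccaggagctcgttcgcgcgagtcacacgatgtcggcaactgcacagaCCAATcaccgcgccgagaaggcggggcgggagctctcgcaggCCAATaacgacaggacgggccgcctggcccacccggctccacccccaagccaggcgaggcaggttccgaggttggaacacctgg
LSS: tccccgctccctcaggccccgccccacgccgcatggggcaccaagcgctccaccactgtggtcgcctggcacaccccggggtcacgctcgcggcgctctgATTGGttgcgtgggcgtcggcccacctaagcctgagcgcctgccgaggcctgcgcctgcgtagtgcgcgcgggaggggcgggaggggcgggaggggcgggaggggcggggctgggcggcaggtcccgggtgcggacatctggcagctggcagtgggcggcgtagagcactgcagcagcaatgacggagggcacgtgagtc
The windows lie at chr7:155297628-155297927 on the plus strand (INSIG1), chr22:41832855-41833154 on the plus strand (SREBF2), chrX:48521558-48521857 on the plus strand (EBP), chr4:165327419-165327718 on the plus strand (MSMO1) and chr21:46228725-46229024 on the minus strand (LSS). Counted from the first base printed, the TCACNTGA match spans bases 195 to 202 in INSIG1 and 124 to 131 in EBP, and the TCACNCCAC match spans bases 118 to 126 in SREBF2. MSMO1 held 4 CCAAT boxes, EBP 3, and INSIG1, SREBF2 and LSS 1 each.

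CCAAT stood in 26 of the 45 windows (57.8%), against 34.6% of all 35116 windows in the table and 34.7% of the 20513 windows whose genes were counted. In the sterol synthesis group it stood in 15 of 20 windows (75%). TCACNTGA stood in 2 windows, those of INSIG1 and EBP (4.44%, against 3.79% of all windows), and TCACNCCAC in 1, that of SREBF2 (2.22%, against 1.13%). A match describes letters and was not read as a bound site, and longer distances were not searched.

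Setting ATO against no ATO over the 3 lines asked which of these genes responded to ATO whichever p53 form the cells carried. Most of the set fell: 22 of the 36 genes tested were lower with ATO, 3 rose and 11 did not pass, as called at 0.05 over 13572 genes by edgeR (quasi-likelihood test, Benjamini-Hochberg adjustment). Among all genes tested 20.9% fell and 22.3% rose. The median log2 fold change was -0.25 over the 36 genes and 0.002 over all genes. By group, 11 of 18 sterol synthesis genes fell and 1 rose (median log2 fold change -0.24), 5 of 6 regulators fell (-0.32), 6 of 9 fatty acid genes fell and 1 rose (-0.28), and 1 of 3 efflux genes tested rose (0.07). No regulator rose at an adjusted or an unadjusted p of 0.05 by edgeR, or by the DESeq2 Wald test. No efflux gene fell by the adjusted p of either tool, and 1 did at an unadjusted p of 0.05 by edgeR. In these bulk samples, fewer cells that express a gene and less RNA per cell cannot be told apart.

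**Figure D1:**
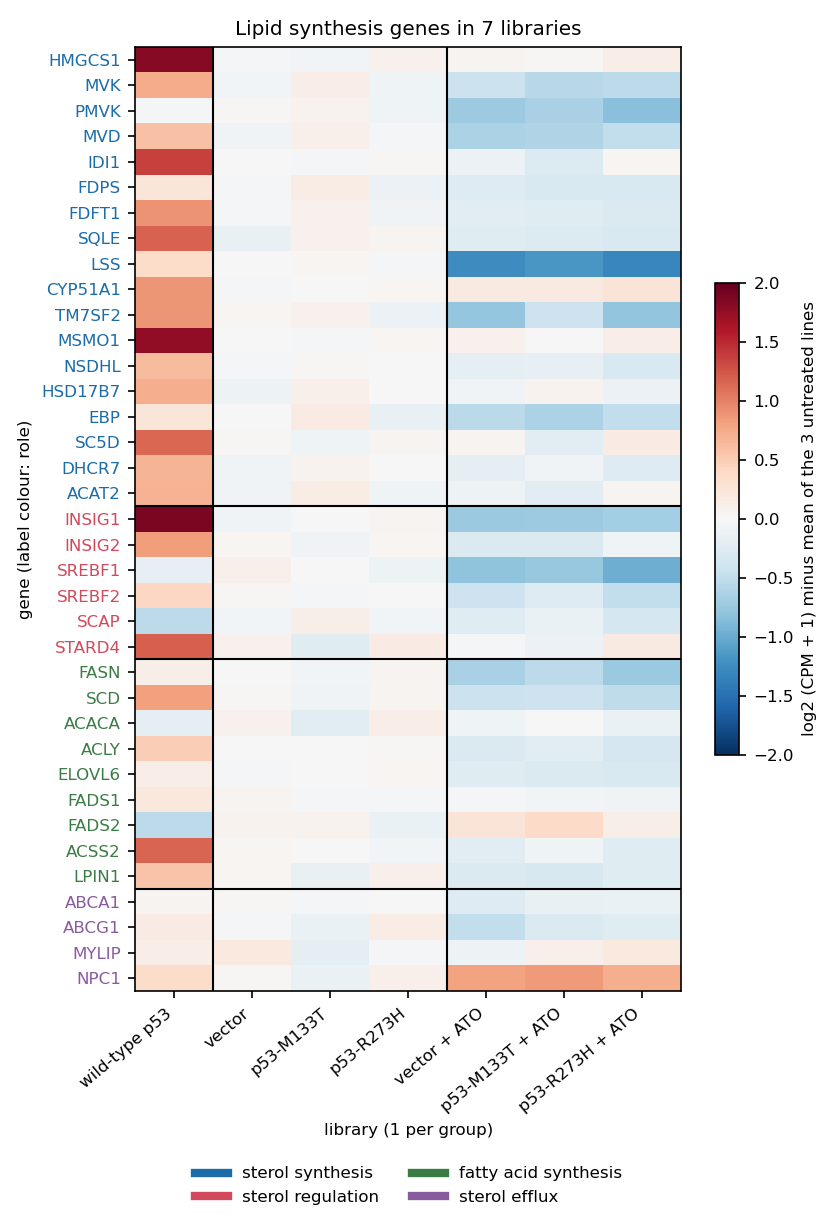
Colour shows log2 (CPM + 1) of each of the 37 genes in each of the 7 libraries, minus its mean over the 3 untreated lines (vector, p53-M133T, p53-R273H), with red for higher and blue for lower; label colour gives the group. The wild-type column is mostly red, the 3 ATO columns are blue for LSS, SREBF1, PMVK, INSIG1 and FASN, and NPC1 is red in the ATO columns.

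Size varied within the set. LSS alone was at least 2-fold lower with ATO, and it was so in each of the 3 pairs of libraries. Of the 12661 genes that reached 1 CPM in some library, 0.987% were at least 2-fold lower in the vector pair, 0.971% in the p53-M133T pair and 0.782% in the p53-R273H pair. Of the 36 genes of the set that reached 1 CPM, none was at least 2-fold higher in any pair, against 0.671%, 1.35% and 0.592% of all genes in the same order, and these pairs of single libraries allow no test. The 3 ATO libraries lay below the 3 untreated ones for 23 of the 36 genes and above them for 3, against 26.5% and 27.6% of all genes.

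**Figure D2:**
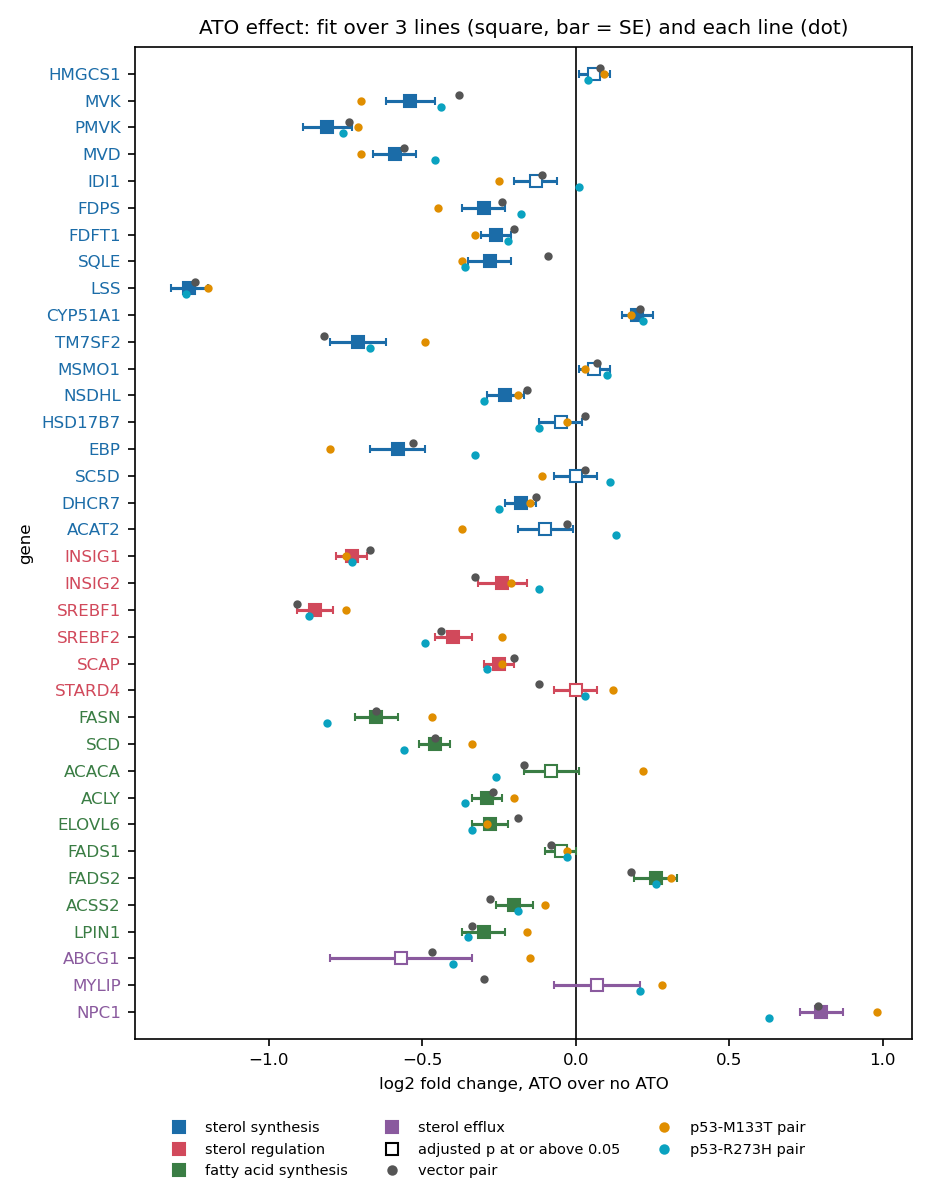
Squares give the log2 fold change with ATO fitted over the 3 lines for the 36 genes tested, with bars of 1 SE, filled where the adjusted p was under 0.05 and open otherwise; dots give the log2 ratio (CPM + 1) in each line's pair of libraries. LSS lies farthest to the left at -1.26 and NPC1 farthest to the right at 0.80.

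In sterol synthesis the steepest fall was at LSS, the lanosterol synthase that closes squalene into the first sterol (hg38 chromosome 21, 46188141 to 46228824, minus strand). LSS stood at 95.2 CPM in vector, 98.6 CPM in p53-M133T and 94 CPM in p53-R273H cells, and with ATO at 39.7, 42.4 and 38.4 CPM in the same order. The groups did not overlap, and their means were 96 ± 2.36 and 40.2 ± 2.05 CPM (SD, n = 3 lines). The fitted log2 fold change was -1.26 (SE 0.06), a fold of 0.417 (edgeR's quasi-likelihood test, adjusted p = 1.05e-05). The exons of LSS share 570 bases with antisense loci on the opposite strand.

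PMVK, the phosphomevalonate kinase, stood at 15.3, 15.8 and 14.2 CPM in untreated vector, p53-M133T and p53-R273H cells and at 8.74, 9.3 and 7.97 CPM with ATO. TM7SF2, a sterol reductase of the steps after lanosterol, stood at 21, 21.6 and 18.7 CPM untreated and at 11.4, 15.1 and 11.3 CPM with ATO. In both genes each ATO library lay below all 3 untreated ones, and the p53-M133T library was the highest of the 3 with ATO. By edgeR's quasi-likelihood test the log2 fold change was -0.81 (SE 0.08, adjusted p = 3.29e-04) for PMVK and -0.71 (SE 0.09, adjusted p = 7.95e-04) for TM7SF2. The exons of TM7SF2 share 16 bases with VPS51 on the same strand.

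The other steps of the mevalonate part fell less or did not pass. MVD, the diphosphomevalonate decarboxylase, fell by 0.59 on the log2 scale (SE 0.07) and MVK, the mevalonate kinase, by 0.54 (SE 0.08). The farnesyl diphosphate synthase gene FDPS fell by 0.30, the squalene epoxidase gene SQLE by 0.28 and the squalene synthase gene FDFT1 by 0.26. HMGCS1, which makes the substrate of the step to mevalonate, had a log2 fold change of 0.06 (SE 0.05), and IDI1, the isopentenyl diphosphate isomerase, one of -0.13 (SE 0.07). ACAT2, the cytosolic thiolase that joins 2 acetyl-CoA units, had one of -0.10 (SE 0.09), and its exons share 2996 bases with genes on the opposite strand, TCP1 among them.

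After lanosterol, genes of neighbouring steps fell, did not pass or, in the case of CYP51A1, rose slightly. EBP, a sterol isomerase, fell by 0.58 on the log2 scale (SE 0.09), NSDHL, a sterol dehydrogenase, by 0.23 and DHCR7, a reductase at the end of the pathway, by 0.18. CYP51A1, the lanosterol demethylase, was the only sterol synthesis gene that rose. It stood at 142, 145 and 148 CPM in untreated vector, p53-M133T and p53-R273H cells and at 165, 163 and 173 CPM with ATO, with no overlap. Its log2 fold change was 0.20 (SE 0.05) by edgeR's quasi-likelihood test (adjusted p = 0.0176), and its exons share 2943 bases with annotated loci on the same strand. This rise was not called without the vector or the p53-R273H pair, or with the GC and length correction below (log2 fold change 0.09). MSMO1, the methylsterol monooxygenase, had a log2 fold change of 0.06 (SE 0.05), SC5D, a sterol desaturase, one of 0.00 (SE 0.07) and HSD17B7, a ketosterol reductase, one of -0.05 (SE 0.07).

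The regulators fell together except STARD4. SREBF1, which encodes SREBP-1 (chromosome 17, 17810399 to 17837002, minus strand), stood at 274, 253 and 238 CPM in untreated vector, p53-M133T and p53-R273H cells and at 145, 151 and 129 CPM with ATO. The exons of SREBF1 share 556 bases with RAI1 on the opposite strand. INSIG1 (chromosome 7, 155297776 to 155310235, plus strand), whose protein retains SCAP in the endoplasmic reticulum, stood at 105, 110 and 113 CPM untreated and at 65.2, 65.3 and 67.7 CPM with ATO. SREBF2, which encodes SREBP-2, the main activator of sterol synthesis, stood at 302, 293 and 296 CPM untreated and at 222, 249 and 210 CPM with ATO. In none of these 3 genes did the ATO and untreated libraries overlap. The group means were 109 ± 4.43 and 66.1 ± 1.44 CPM (SD, n = 3 lines) for INSIG1.

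By edgeR's quasi-likelihood test the log2 fold change was -0.85 (SE 0.06, adjusted p = 6.81e-05) for SREBF1, -0.73 (SE 0.05, adjusted p = 8.52e-05) for INSIG1 and -0.40 (SE 0.06, adjusted p = 0.0023) for SREBF2. SCAP fell by 0.25 (SE 0.05) and INSIG2, the relative of INSIG1, by 0.24 (SE 0.08). STARD4, a soluble sterol carrier, had a log2 fold change of 0.00 (SE 0.07).

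In the fatty acid group FASN, the multifunctional synthase, stood at 2838, 2743 and 2969 CPM in untreated vector, p53-M133T and p53-R273H cells and at 1814, 1975 and 1699 CPM with ATO. SCD, which puts the first double bond into saturated fatty acids, stood at 2936, 2750 and 2995 CPM untreated and at 2138, 2178 and 2027 CPM with ATO. LPIN1, a phosphatidate phosphatase of triglyceride synthesis, stood at 30.1, 26.1 and 31.5 CPM untreated and at 23.6, 23.2 and 24.4 CPM with ATO. All 3 were lower in every ATO library than in any untreated one, by log2 0.65 (SE 0.07) for FASN, 0.46 (SE 0.05) for SCD and 0.30 (SE 0.07) for LPIN1. The adjusted p by edgeR's quasi-likelihood test was 3.15e-04, 6.11e-04 and 0.00993 in that order.

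ACLY, which supplies cytosolic acetyl-CoA from citrate, fell by 0.29 on the log2 scale, the elongase gene ELOVL6 by 0.28 and ACSS2, which makes acetyl-CoA from acetate, by 0.20. FADS2, the first desaturase of polyunsaturated fatty acid synthesis, rose by 0.26 (SE 0.07), while FADS1, the next desaturase, had a log2 fold change of -0.05 (SE 0.05). Exons of FADS1 and FADS2 share 490 bases on opposite strands. ACACA, the acetyl-CoA carboxylase of the committed step, had a log2 fold change of -0.08 (SE 0.09). The summed level of the 9 genes went from 7146 to 5144 CPM in the vector pair, from 6769 to 5395 CPM in the p53-M133T pair and from 7361 to 4881 CPM in the p53-R273H pair. FASN and SCD made up most of each sum, so it mainly restates these genes.

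Among efflux genes, NPC1, which moves cholesterol out of lysosomes (chromosome 18, 23506184 to 23586898, minus strand), stood at 77.5, 69.3 and 81.8 CPM in untreated vector, p53-M133T and p53-R273H cells and at 134, 137 and 127 CPM with ATO. Every ATO library lay above every untreated one, with a log2 fold change of 0.80 (SE 0.07), a fold of 1.74 (edgeR's quasi-likelihood test, adjusted p = 2.20e-04). NPC1 shares 604 exon bases with RMC1 on the opposite strand. ABCG1, a sterol efflux pump, stood at 1.75, 1.55 and 2.1 CPM untreated and at 0.989, 1.29 and 1.36 CPM with ATO. Its ATO libraries were the lower ones, with a log2 fold change of -0.57 (SE 0.23) that did not pass (edgeR's quasi-likelihood test, adjusted p = 0.0805). MYLIP, a ubiquitin ligase that targets lipoprotein receptors, had a log2 fold change of 0.07 (SE 0.14).

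**Figure D3:**
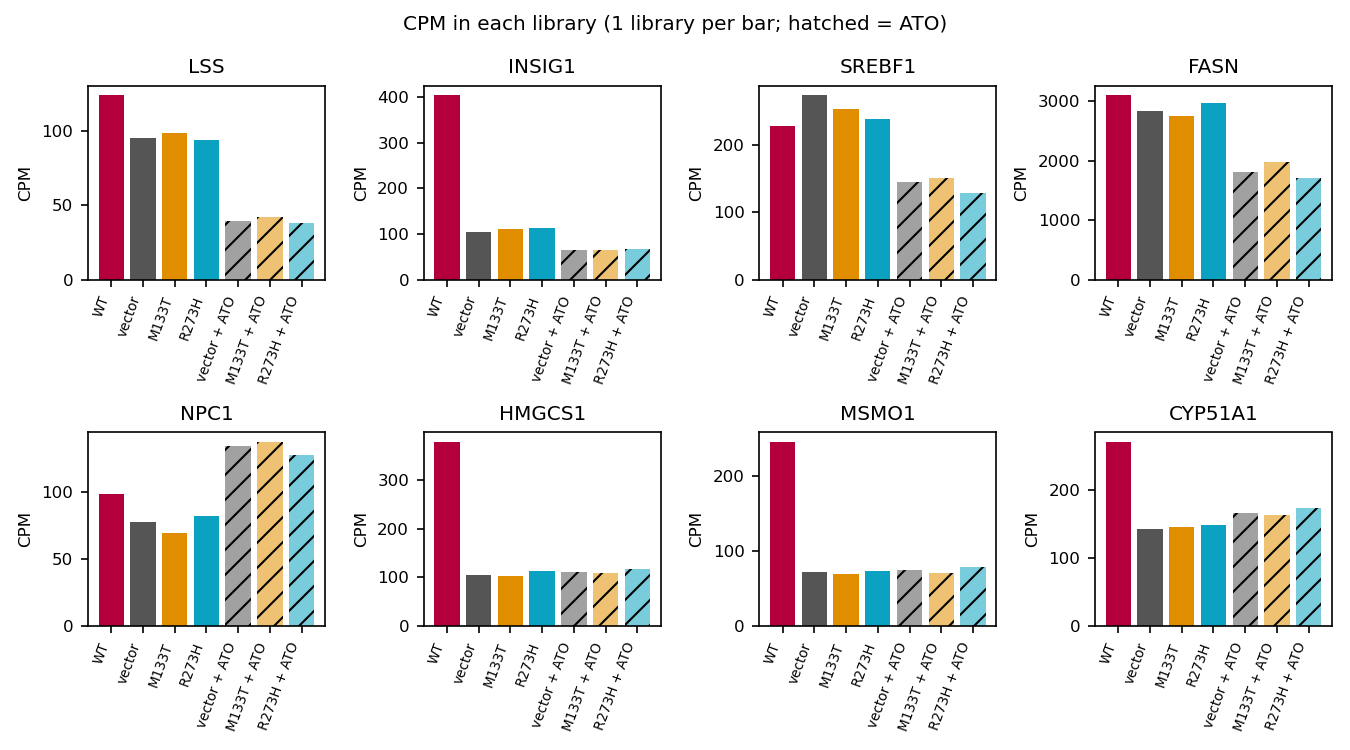
Bars give the TMM-scaled CPM of 8 genes in each of the 7 libraries (1 library per bar, so no error bar), with ATO hatched. LSS, INSIG1, SREBF1 and FASN are lower and NPC1 is higher in the 3 hatched bars, while INSIG1, HMGCS1 and MSMO1 are highest in wild-type p53.

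Several calls of small changes depended on which lines entered the test, which left 1 residual degree of freedom when a pair was taken out. Without the vector pair 12 genes of the set fell and 1, NPC1, rose. Calls were fewer over all genes as well: 1403 fell and 1511 rose of 13389, against 2838 and 3021 of 13572 with the 3 lines. The genes of the set no longer called were FDPS, FDFT1, NSDHL, DHCR7, INSIG2, SCAP, ACLY, ELOVL6, ACSS2 and LPIN1 among those that had fallen, and CYP51A1 and FADS2 among those that had risen. The fitted changes of these genes stayed near their values over the 3 lines, such as FDPS at -0.31 on the log2 scale, FDFT1 at -0.27, ACLY at -0.28, CYP51A1 at 0.20 and FADS2 at 0.30, with the widest shifts at INSIG2 (-0.24 to -0.17) and ACSS2 (-0.20 to -0.14). LSS, PMVK, TM7SF2, MVD, MVK, EBP, SREBF1, INSIG1, SREBF2, FASN, SCD and SQLE still fell. Without the p53-R273H pair CYP51A1, NSDHL, DHCR7 and ACSS2 were not called. Without the p53-M133T pair ACACA (log2 fold change -0.22) and ABCG1 (-0.73) fell as well, in a test that took its spread wholly from other genes.

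ATO fold changes followed the GC content of the transcripts. The Spearman correlation between the log2 fold change and the GC content of the longest transcript was -0.566 across the 36 genes and -0.371 across all 13572 genes tested, genes that share 6 libraries and so are no independent points. With a correction for GC content and exon length it was -0.25 and 0.00368. After that correction 22 genes of the set fell and 2 rose, against 20.9% of all genes in either direction, and the median log2 fold change of the set was again -0.25. DHCR7, SCAP and ACSS2 no longer fell and CYP51A1 no longer rose, while IDI1 (log2 fold change -0.25), STARD4 (-0.20) and ACACA (-0.17) fell. LSS (-1.15), INSIG1 (-0.78), SREBF1 (-0.67) and PMVK (-0.62) still fell and NPC1 (0.75) still rose.

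**Figure D4:**
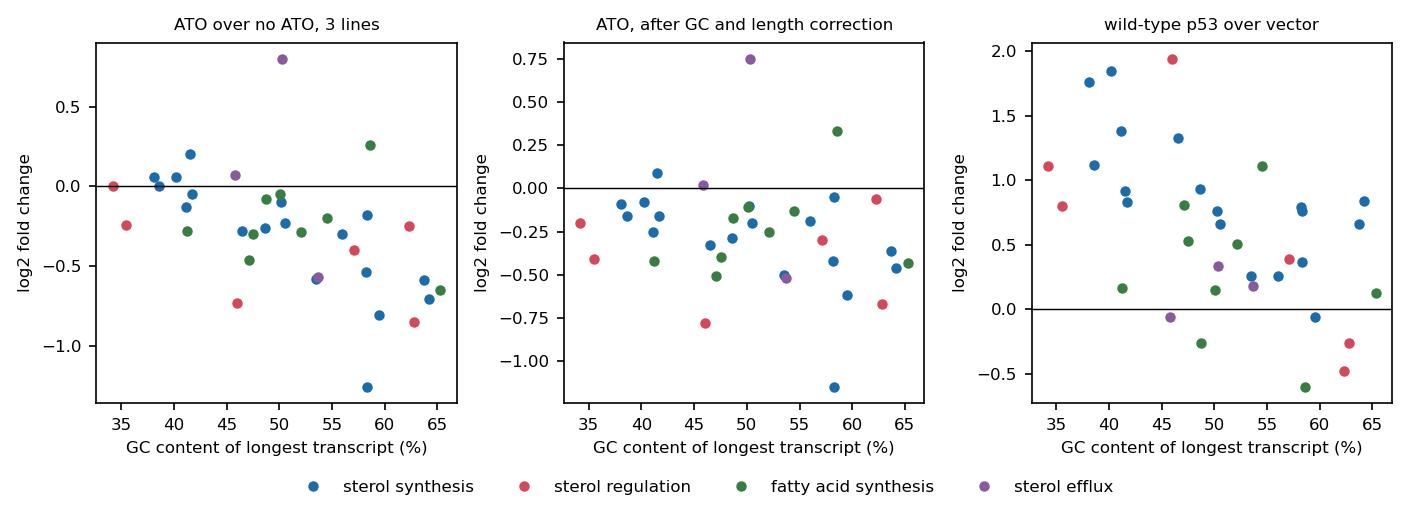
Each dot is 1 of the 36 genes, with the GC content of its longest transcript on the x axis (percent) and a log2 change on the y axis: the ATO effect over the 3 lines, the same after the GC and length correction, and the ratio of wild-type p53 to vector cells. The downward slope is there in the first and the last panel (Spearman -0.566 and -0.567) and weaker in the middle one (-0.25).

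Other genes of the pathway showed mixed changes with ATO in the same test. Of 7 genes of SREBP cleavage and INSIG turnover, 4 rose and 1 fell (2 and 3 with the GC and length correction), and the largest change was that of UBXN8 (log2 fold change 0.50). Of 8 other SREBP targets 3 rose and 3 fell (3 and 5 with the correction), with the malic enzyme gene ME1, which supplies NADPH, at 1.45 (SE 0.06) and PCYT2, an enzyme of phosphatidylethanolamine synthesis, at -0.52. Of 5 genes of the LXRs and their targets 2 fell, among them the acyltransferase gene LPCAT3 (log2 fold change -0.34), and none rose by edgeR at an adjusted or unadjusted p of 0.05 or by DESeq2, while 1 rose and 2 fell with the correction.

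Of 6 genes of sterol transport and esterification 3 rose and 2 fell (3 and 1 with the correction), with GRAMD1B, which carries plasma membrane cholesterol to the endoplasmic reticulum, at 1.64 (SE 0.13) and the esterifying enzyme gene SOAT1 at 0.43. Of 8 enzymes of the isoprenoid branch 2 rose and 3 fell, the same counts as with the correction, led by COQ2 of ubiquinone synthesis (-0.46) and the farnesyltransferase subunit gene FNTA (0.43). Of 6 genes of fatty acid oxidation 1 fell, the carnitine palmitoyltransferase gene CPT2 (-0.31), and none rose by edgeR at either p or by DESeq2. Against the shares over all genes of 22.3% and 20.9%, these short lists give no more than counts. Summed leukocyte markers went from 5.41 to 7.64 CPM in the vector pair, from 4.34 to 8.9 CPM in the p53-M133T pair and from 4.24 to 7.63 CPM in the p53-R273H pair, and CD68, the only one tested, rose with ATO (log2 fold change 0.93); of the 6 colon epithelial markers tested 3 rose and 1, KRT19, fell. The part of these markers in the changes of the set was not tested.

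The tests of line differences asked if ATO acted otherwise in 1 line than on average in the other 2. Over all 13974 genes 5.84% had a higher and 2.43% a lower ATO effect in p53-M133T cells, 0.222% differed for p53-R273H and 0% for vector. Of the 37 genes 2 had a higher effect in p53-M133T cells, ACACA and NPC1, and 2 a lower one, ACAT2 and EBP, and counts this small are not read against those shares. For vector and p53-R273H no gene of the set was called by edgeR's quasi-likelihood test or by DESeq2, and 1 and 2 genes, respectively, had an unadjusted p under 0.05 by edgeR. The test for p53-M133T rests on 1 residual degree of freedom and takes its spread almost wholly from other genes.

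ACACA stood at 475 CPM in vector, 388 CPM in p53-M133T and 490 CPM in p53-R273H cells, and with ATO at 422, 450 and 410 CPM. It was lower with ATO in the vector and p53-R273H pairs, at folds of 0.889 (95% counting interval 0.87 to 0.909) and 0.836 (0.817 to 0.854), and higher in the p53-M133T pair at 1.16 (1.14 to 1.19). The difference was 0.43 on the log2 scale (SE 0.09; edgeR's quasi-likelihood test, adjusted p = 2.43e-04), and the untreated p53-M133T library was the lowest of the 6. For NPC1, with the values given above, the folds were 1.73 in vector, 1.98 in p53-M133T and 1.55 in p53-R273H cells, a difference of 0.28 (SE 0.09, adjusted p = 0.0448 by edgeR).

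ACAT2 stood at 45.4, 53.2 and 44.9 CPM in untreated vector, p53-M133T and p53-R273H cells and at 44.4, 40.8 and 49.3 CPM with ATO. EBP stood at 41.6, 47.1 and 37.6 CPM untreated and at 28.5, 26.7 and 29.6 CPM with ATO. In both genes the p53-M133T library was the highest of the 3 untreated and the lowest of the 3 with ATO. The differences were -0.43 (SE 0.11, adjusted p = 0.00358 by edgeR) for ACAT2 and -0.37 (SE 0.12, adjusted p = 0.0332 by edgeR) for EBP. The M133T difference followed exon length, with a Spearman correlation of 0.441 over the 37 genes and 0.36 over 13572 genes, and with the GC and length correction none of the 4 differences passed. Their log2 values were then 0.19 for ACACA, 0.11 for NPC1, -0.41 for ACAT2 and -0.25 for EBP, with edgeR adjusted p of 0.222, 0.543, 0.0542 and 0.295.

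Wild-type p53 and vector cells, both untreated, were compared to ask which of these genes were at another level with wild-type p53. It sets 1 library against 1, so it carries no p-value, and the intervals cover counting error only. With wild-type p53, 8 of 36 genes were 2-fold higher or more, against 2.87% of the 12661 genes, and none was at least 2-fold lower, against 1.96%. The median log2 ratio was 0.66 over the 36 genes and 0.011 over all genes, with 30 of 36 above 0. It was 0.81 in sterol synthesis, 0.60 among regulators, 0.17 in the fatty acid group and 0.18 in the efflux group. Wild-type p53 lay above all 6 other libraries for 29 of the 36 genes and below them for 2, SCAP and FADS2, against 29.3% and 30.3% of all genes. The summed level of leukocyte markers, KRT19 and CDH1 were also highest in this library, as given above, and their part in these ratios was not tested.

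**Figure D5:**
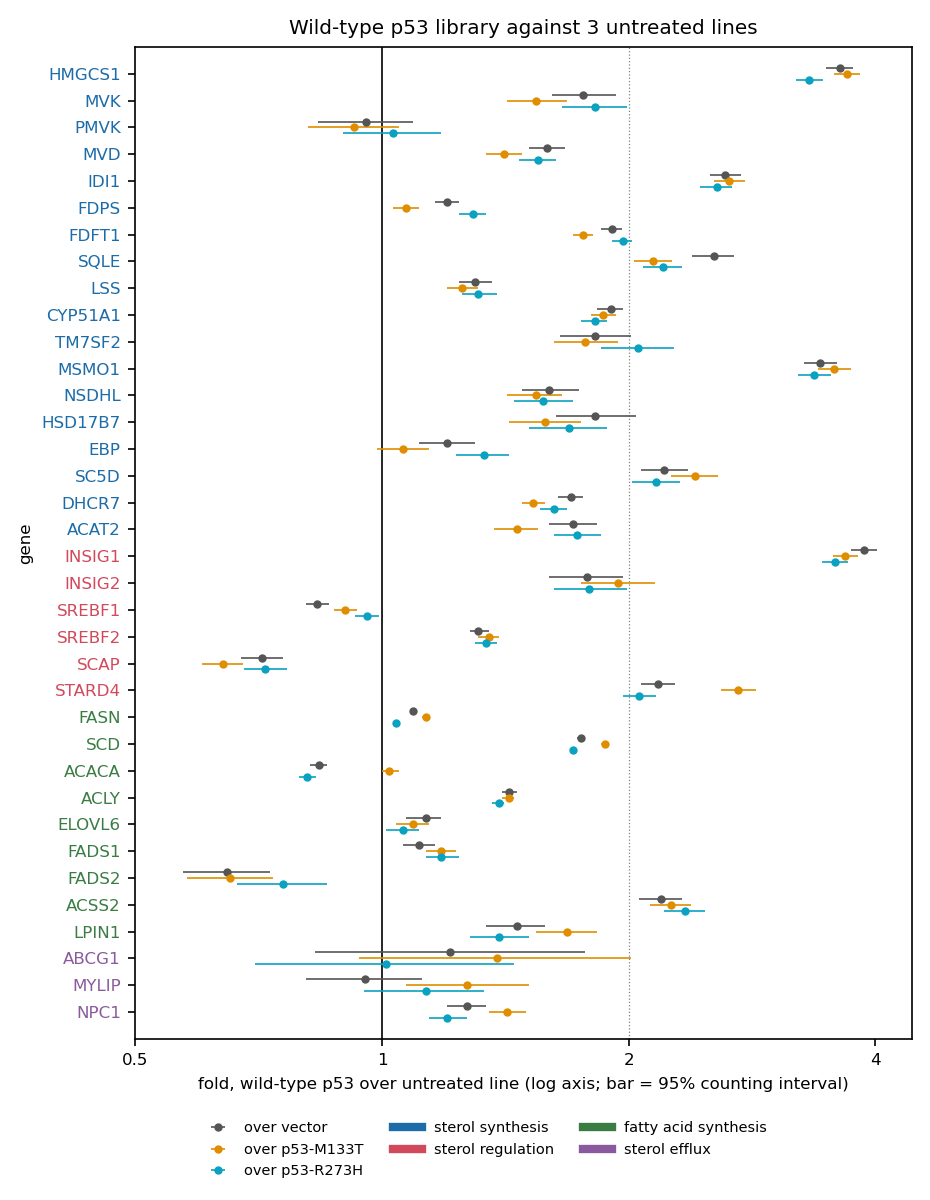
Dots give the fold of each of the 36 genes in wild-type p53 cells over untreated vector, p53-M133T and p53-R273H cells on a log axis, with bars for the 95% counting interval (1 library each, no replicate error); the dotted line marks 2-fold. INSIG1, HMGCS1 and MSMO1 lie above 3-fold against each line, and SCAP, SREBF1 and FADS2 lie below 1 against each.

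The 8 genes came from several steps. INSIG1 stood at 404 CPM in wild-type p53 cells, against 105 to 113 CPM in the untreated lines and 65.2 to 67.7 CPM with ATO, a fold of 3.87 (3.73 to 4.02) over vector. HMGCS1 stood at 379 CPM in wild-type p53, at 105, 102 and 114 CPM in untreated vector, p53-M133T and p53-R273H cells and at 111, 109 and 117 CPM with ATO, a fold of 3.62 (3.48 to 3.76). MSMO1 stood at 245 CPM in wild-type p53, at 71.6, 68.8 and 72.7 CPM in the untreated lines and at 75.2, 70.5 and 78.2 CPM with ATO, a fold of 3.42 (3.27 to 3.59). For these 3 genes the other 6 libraries formed a narrow band far below the wild-type one, apart from the step down of INSIG1 with ATO.

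IDI1 stood at 221 CPM in wild-type p53, at 84.1, 83.3 and 86.4 CPM in untreated vector, p53-M133T and p53-R273H cells and at 77.7, 69.8 and 87.1 CPM with ATO (fold over vector 2.62, 2.51 to 2.74). SQLE stood at 127 CPM in wild-type p53, at 50.1, 59.4 and 57.9 CPM in the untreated lines and at 47, 45.8 and 45 CPM with ATO (fold 2.54, 2.39 to 2.69). SC5D stood at 89.3 CPM in wild-type p53, at 40.4, 37.1 and 41.3 CPM in the untreated lines and at 41.3, 34.2 and 44.5 CPM with ATO (fold 2.21, 2.07 to 2.36). All 3 were highest in wild-type p53 cells, and only in SQLE were the ATO libraries all below the untreated lines.

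ACSS2 stood at 115 CPM in wild-type p53, at 52.8, 51.3 and 49.3 CPM in untreated vector, p53-M133T and p53-R273H cells and at 43.4, 47.9 and 43.2 CPM with ATO (fold over vector 2.19, 2.06 to 2.32). STARD4 stood at 173 CPM in wild-type p53, at 79.5, 63.5 and 83.9 CPM in the untreated lines and at 73, 69.1 and 85.5 CPM with ATO (fold 2.17, 2.07 to 2.28). In STARD4 the libraries with and without ATO overlapped, and p53-M133T was the lowest line in both. Of the 8 genes, INSIG1, SQLE and ACSS2 fell with ATO and the other 5 did not pass that test, and both comparisons share the vector library.

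The remaining sterol synthesis genes had folds over vector between 0.955 for PMVK, whose interval of 0.835 to 1.09 includes 1, and 1.91 for FDFT1. LSS, the gene with the steepest fall with ATO, was at 124 CPM in wild-type p53 cells, a fold of 1.3 (1.24 to 1.36). Among regulators INSIG2 had a fold of 1.78 and SREBF2 one of 1.31, whereas SREBF1 was at 228 CPM with a fold of 0.833 (0.807 to 0.861) and SCAP at 63.6 CPM with a fold of 0.714 (0.673 to 0.758). In the fatty acid group SCD stood at 5133 CPM, a fold of 1.75 (1.73 to 1.76), LPIN1 had a fold of 1.46, ACLY one of 1.43, ELOVL6 one of 1.13, FADS1 one of 1.11 and FASN one of 1.09. ACACA had a fold of 0.837 and FADS2 one of 0.646 (0.571 to 0.73). NPC1 had a fold of 1.27, ABCG1 one of 1.21 (0.828 to 1.77), and ABCA1, with 8 counts against 10, one of 1.09 (0.375 to 3.08).

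Against the other untreated lines the ratios were close to those against vector. Of the 36 genes, 8 passed 2-fold against p53-M133T and 8 against p53-R273H, all higher, with median log2 ratios of 0.57 and 0.63. Over all genes these medians were 0.015 and -0.001. All these ratios use the same wild-type library, so they are no repeats of each other. TM7SF2 had a fold of 1.82 against vector and 2.05 against p53-R273H as ratios of CPM, and it is not among the 8 because the 2-fold threshold was set on CPM + 1. The wild-type ratio also followed GC content within the set, with a Spearman correlation of -0.567 over the 36 genes, but not over all 12634 genes (-0.0319). With the GC and length correction the value over the set was -0.535, the median log2 ratio of the set was 0.70, and 8 genes were still at least 2-fold higher. For wild-type p53 the share of all genes past 2-fold was counted only against vector and without this correction.

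Untreated p53-M133T and p53-R273H cells were compared with vector cells in the same way. None of the 36 genes differed by 2-fold in either, against 0.205% and 0.174% of all genes. The median log2 ratio of the set was -0.01 for p53-M133T and 0.03 for p53-R273H, against 0.014 and 0.012 over all genes. In p53-M133T cells the lowest folds were 0.749 for MYLIP, 0.798 for STARD4 and 0.817 for ACACA, and the highest was 1.18 for SQLE. In p53-R273H cells the folds ran from 0.845 for MYLIP to 1.2 for ABCG1. INSIG1, HMGCS1 and MSMO1, which were more than 3-fold higher with wild-type p53, had folds over vector of 1.05, 0.979 and 0.961 with p53-M133T and 1.08, 1.09 and 1.02 with p53-R273H.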

How the data were processed

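RNA-seq counts of 7 libraries, 1 per group, were analysed. The deposited table holds whole-number counts, without normalization, for each gene. Per the labels' protocols, TruSeq libraries were read in pairs of 150 bp, and the submitters' processing notes name hg38 with STAR, cutadapt and FastQC, without versions. How reads were assigned to genes, with which annotation and strand setting, is not given in the sources used here, so values of genes that share exons or have near-identical copies are uncertain. Shared exons are named in the text for some of these genes only. The table held 0 columns of other samples and 0 genes without a name. Coordinates, exon lengths and GC contents came from GENCODE release 29, which held all 19699 identifiers. The transcript of the introduced p53 gene and values of some listed genes are not reported here.

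Counts were scaled by TMM. ATO was tested with edgeR 4.0.16 (limma 3.58.1, R 4.3.3): quasi-likelihood test, edgeR's filter on low counts, line as a block, 6 libraries, 2 residual degrees of freedom, Benjamini-Hochberg adjustment over all genes at 0.05. The spread of each gene was moderated by that of other genes, with 5.95 prior degrees of freedom. Line differences were tested likewise, each line against the other 2. DESeq2 1.42.0 was an alternative. The block follows from the shared line. Deviations of a line's 2 libraries from their treatment means correlated at 0.0738 (vector), 0.106 (p53-M133T) and 0.218 (p53-R273H) over 12164 genes. Pairs of libraries were compared by log2 (CPM + 1) over the genes that reached 1 CPM in some library, and 2-fold was the threshold of size. Folds in the text are ratios of CPM with 95% Clopper-Pearson intervals. Without molecular identifiers reads are no independent molecules, so intervals and limits cover counting error only. The GC and length correction subtracted a lowess of each library (span 0.3). The tests were also run on simulated counts, with the same spread for every gene and planted changes of at least 2-fold. That simulation had no differences between untreated lines and no trend with GC content or length. It does not show how the tests perform on the smaller changes and trends of these data.

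The members and the gene lists were chosen with earlier results of these data known. Values in every library are given for the 3 genes of each group (2 for efflux) with the largest ATO change, for genes past 2-fold across the lines or in wild type against vector, and for genes called in a line difference; of other lists, at most 2 genes past the threshold with the largest change were named. CD68, EPCAM, KRT8 and the other markers were named from marker lists.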

Additional observations from a re-analysis of the deposited data

Results flagged for a closer look

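The ATO effect of 4 genes differed between p53-M133T cells and the mean of the vector and p53-R273H cells by edgeR's quasi-likelihood test. The difference on the log2 scale was 0.43 for ACACA and 0.28 for NPC1, which lay higher in p53-M133T cells, and -0.43 for ACAT2 and -0.37 for EBP, which lay lower. ACACA was higher with ATO in the p53-M133T pair and lower in the other 2 pairs. ACAT2 was lower with ATO in the p53-M133T and vector pairs and higher in the p53-R273H pair, NPC1 was higher in all 3 pairs and EBP lower in all 3. The differences of all genes between p53-M133T and the other lines followed exon length (Spearman 0.36), and whether each of these 4 differences goes back to that trend was not tested beyond the correction for GC content and length.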

How the results depend on the processing

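Across the lines, 22 genes fell and 3 rose with ATO. Leaving out a pair of libraries gave 12 to 24 that fell and 1 to 3 that rose, the lowest without the vector pair. Over all genes calls were also fewest without the vector pair, where 1403 fell and 1511 rose of 13389. They were most without the p53-M133T pair, where 3254 fell and 3585 rose of 13381. DESeq2 (19 and 2), other size factors, other filters on low counts and the GC and length correction (22 and 2) stayed within 1.5 times. Without the replicate block DHCR7, INSIG2 and FADS2 were not called (edgeR adjusted p of 0.0547, 0.053 and 0.0512), and 33 of 36 genes stayed on their side of the threshold. DESeq2 did not call NSDHL, INSIG2, FADS2 and ACSS2. STARD4 went from 0.00 to -0.20 under the GC and length correction, by which it was called. Of the differences in p53-M133T, 2 higher became 1 with DESeq2, 1 without the filter (NPC1 lost) and 0 with the correction, and 2 lower became 0 with DESeq2 and 0 with the correction; DESeq2 gave no adjusted p for 16 of the 37 genes. The correction for line differences, and p53-M133T or p53-R273H in place of vector below wild-type p53, were chosen after seeing the data. The counts past 2-fold stayed within 1.5 times under other pseudocounts, scalings and filters. Depth kept ABCA1 (2 to 10 counts per library) out of the test across the lines and leaves a wide interval for ABCG1, and 1 library per group leaves the spread between cultures unmeasured.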
